A study of Homo sapiens with 5 samples.

Results

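The late-only genes are 42 genes whose signal was at least 2-fold above the control on both late arrays, B-DIM at 48 h and isoflavone at 72 h, and within 1.5-fold of it on both 6 h arrays. They were chosen from 19775 genes, each represented by the probe set with the highest mean signal over the 5 arrays, and are 0.299% of the 14025 of those genes that lay above a floor on at least 1 array. The floor was 97.1, the median of all signals, and lower signals were raised to it before any ratio was taken. The 4 ratios to the control picked these genes, so those ratios are descriptions of the set and support nothing by themselves.

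C4-2B, the cell line studied, descends from LNCaP prostate cancer cells and forms bone metastases. Its RNA was measured on 5 Affymetrix Human Genome U133 Plus 2.0 arrays, 1 per condition. The groups were B-DIM at 25 µM for 48 h, isoflavone at 25 µM for 72 h, B-DIM at 25 µM for 6 h, isoflavone at 25 µM for 6 h, and a control given DMSO at 0.1%, the vehicle. All cells grew in RPMI 1640 medium with 10% FBS, and the isoflavone dose counts the genistein in the mixture. B-DIM is a formulated 3,3′-diindolylmethane, which arises from indole-3-carbinol, a crucifer compound, and is a ligand of the aryl hydrocarbon receptor. The isoflavone mixture, G2535, is mostly genistein with daidzein, soy compounds that bind estrogen receptors, and genistein also inhibits tyrosine kinases. The control has no stated culture time, so the effect of either compound and of 48 or 72 h more in culture cannot be told apart. The 4 ratios share the 1 control array. With 1 array per condition there is no spread between replicates, no p-value is given, and each value describes these arrays only.

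The arrays were alike in overall level, with trimmed mean signals of 498.1 to 498.4 and 48.4% to 52.6% of the 54613 probe sets above the floor. They were unlike in identity genes of luminal prostate cells. The 8 luminal markers on the arrays summed to 1770 with B-DIM at 48 h and 1207 with isoflavone at 6 h, against 10897 in the control, and all 8 were at least 2-fold lower on each of those arrays, beside 3.87% of all measured genes with B-DIM at 48 h and 3.82% with isoflavone at 6 h. The sums were 7195 with isoflavone at 72 h, with 2 of 8 markers 2-fold lower beside 2.06% of measured genes, and 9277 with B-DIM at 6 h, with none beside 0.806%. KLK3, which encodes prostate-specific antigen, had a signal of 14.6 with B-DIM at 48 h, 1545 with isoflavone at 72 h, 3424 with B-DIM at 6 h and 269.5 with isoflavone at 6 h, against 5096 in the control. Thus 1 late and 1 early array stand apart from the other 3. Whether a label, a culture or a hybridisation of these arrays differs from what is stated was not tested, and each ratio that uses them is given as labelled. The rule itself requires high values on 1 array of each kind and values near the control on the other. Of the markers of other cells, 4 or 5 of 6 for macrophages and osteoclasts and at least 4 of 5 for basal epithelium lay under the floor on each array. The summed signal was 187 to 415 for macrophage and osteoclast markers, 1309 to 2622 for 8 fibroblast and osteoblast markers and 68.7 to 199 for basal markers over the 5 arrays. Of 7 neuroendocrine markers, CHGA, CHGB, SYP and SCG2 lay under the floor on each array, and the summed signal was 2541 with B-DIM at 48 h, 2698 with isoflavone at 72 h, 1923 with B-DIM at 6 h and 1468 with isoflavone at 6 h, against 1426 in the control. The other 3 were above the floor in the control. On the late arrays INSM1 was at log2 ratios of 1.92 with B-DIM and 1.43 with isoflavone, NCAM1 at 0.51 with B-DIM and 1.03 with isoflavone, and ENO2 at 0.72 with B-DIM and 0.89 with isoflavone. Thus 1 of 3 measured markers was at least 2-fold higher with B-DIM, beside 5.33% of all measured genes, and 2 of 3 with isoflavone, beside 4.8%. The part of these differences in the late-only values was not tested. In RNA from whole cultures, a change in the share of one kind of cell and a change in RNA per cell cannot be told apart.

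Across all genes, 5.33% of 12927 measured ones were at least 2-fold higher with B-DIM at 48 h, 4.8% of 12605 with isoflavone at 72 h, and 1.81% of 14025 on both. Those on both were 254 genes, and most of them had already moved at 6 h. With B-DIM at 6 h, 187 of the 254 were past 1.5-fold higher than the control and none was past 1.5-fold lower. With isoflavone at 6 h, 91 were past 1.5-fold higher and 18 past 1.5-fold lower. The 42 late-only genes, 16.5% of the 254 and 0.299% of the 14025, are those that had done neither on either array. The same limits turned round picked 27 genes, 0.193% of the 14025, that were lower only on the late arrays, among them PKM and PGAM1, which encode glycolytic enzymes, and CTSA, a lysosomal protease.

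The late rise was modest for most of the set. With B-DIM at 48 h the log2 ratio to the control ran from 1.01 to 3.12 and the median ratio was 2.37-fold, where the median log2 ratio of all measured genes was 0.06. With isoflavone at 72 h it ran from 1.01 to 3.36 and the median ratio was 2.57-fold, where the median log2 ratio of all measured genes was 0.05. On B-DIM at 48 h, 26 of the 42 lay between 2-fold and 2.5-fold and 10 reached 3-fold. On isoflavone at 72 h, 19 lay between 2-fold and 2.5-fold and 8 reached 3-fold. Only PTX3, C11orf96 and ELSPBP1 reached 3-fold on both. Late signals ran from 199 (DNAH17 and ERC2 had the lowest) to 10820 (MALAT1), both late signals of 15 genes were under 4 times the floor, and the control signal was over 1000 for 5 genes and under 200 for 22. For 8 genes the control lay under the floor, so that their ratios are lower bounds: PTX3, ELSPBP1, INSC, DEPP1, ABI3BP, CLTRN, ATP6V0D2 and DNAH17. Without the floor only 33 of the 42 stayed within 1.5-fold of the control on both 6 h arrays. ELSPBP1, INSC, DEPP1, ABI3BP, CLTRN and DNAH17 were then past 1.5-fold higher on at least 1 of them. MKX, TMEM178A and C2orf72 were then past 1.5-fold lower with isoflavone at 6 h.

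**Figure D1:**
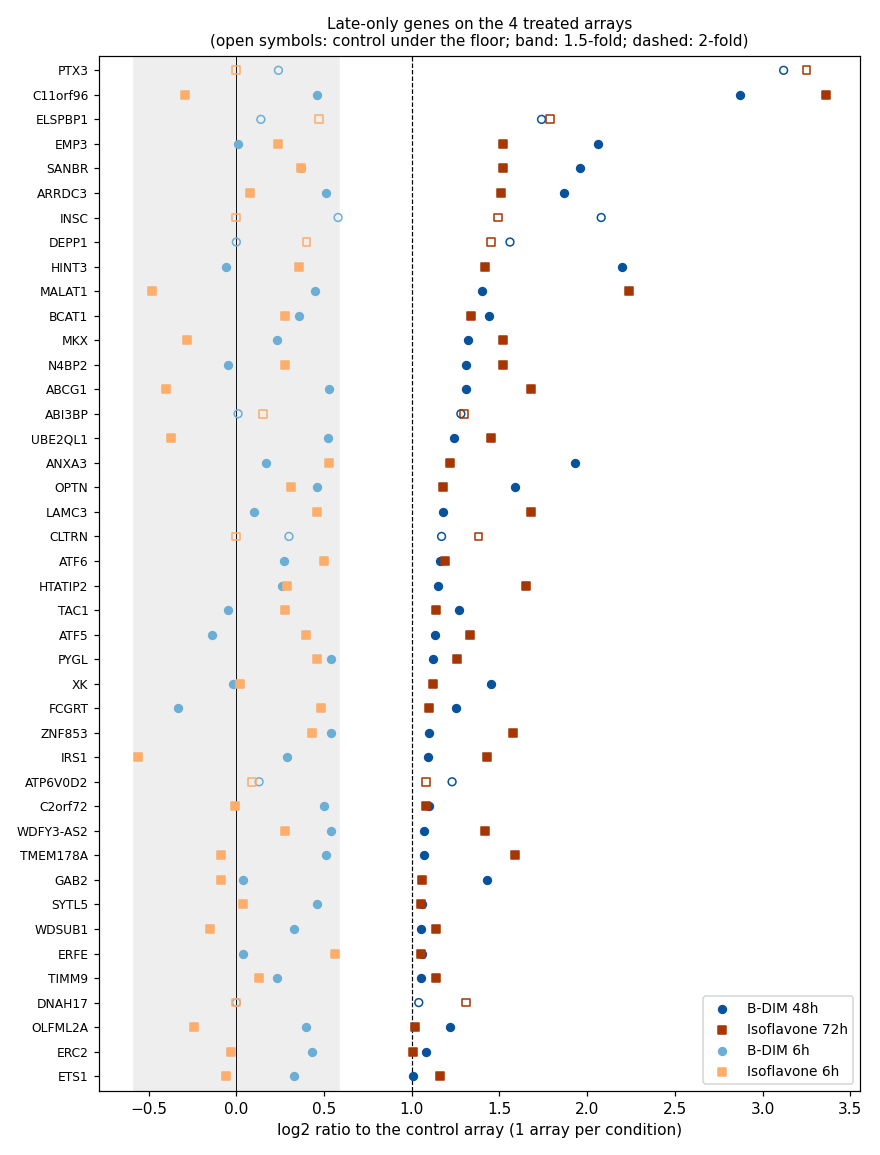
Log2 ratio to the control array (horizontal axis) of each of the 42 late-only genes (rows, ordered by the smaller of the late ratios) on B-DIM at 48 h, isoflavone at 72 h, B-DIM at 6 h and isoflavone at 6 h, 1 array each. The late points lie to the right of the dashed 2-fold line and the 6 h points within the shaded 1.5-fold band because the rule requires it. PTX3 and C11orf96 stand apart at about 3 log2 units, and open symbols mark the 8 genes with a control under the floor.

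Among secreted and matrix proteins, which numbered 7, PTX3 led. It encodes pentraxin 3, a soluble pattern recognition protein that binds microbes and complement components and is made in inflammation. Its probe set, 206157_at, gave 847 with B-DIM at 48 h, 921 with isoflavone at 72 h, 114 with B-DIM at 6 h and 66.2 with isoflavone at 6 h, against 94.7 in the control. Both late signals were at least 7.41 times the highest of the other 3, 2 of which lay under the floor, so the ratios to the control are at least 8.72-fold with B-DIM at 48 h and 9.49-fold with isoflavone at 72 h. The RefSeq promoter of PTX3 (GRCh38.p14, chr3:157436600-157436899, plus strand, 250 bases before the start site to 50 after) is shown because PTX3 had the largest smaller-of-both late ratio. Capitals mark a CCAAT box, the letters bound by NF-Y, whose first base lies 197 bases before the start site.
PTX3: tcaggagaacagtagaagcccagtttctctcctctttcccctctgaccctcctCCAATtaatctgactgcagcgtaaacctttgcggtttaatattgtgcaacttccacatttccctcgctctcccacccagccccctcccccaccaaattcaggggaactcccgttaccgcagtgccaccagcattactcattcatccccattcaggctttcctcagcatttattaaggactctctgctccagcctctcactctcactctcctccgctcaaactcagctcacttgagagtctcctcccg

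ELSPBP1 encodes an epididymal protein that binds sperm, and its signals were 324 with B-DIM at 48 h, 336 with isoflavone at 72 h, 107 with B-DIM at 6 h and 135 with isoflavone at 6 h, against 71.5 in the control. All were low, and the late ones were at least 3.33-fold with B-DIM at 48 h and 3.46-fold with isoflavone at 72 h the control. ABI3BP, an extracellular matrix protein, read 235 with B-DIM at 48 h, 239 with isoflavone at 72 h, 97.6 with B-DIM at 6 h and 108 with isoflavone at 6 h, against 42.5 in the control, with late ratios of at least 2.42-fold with B-DIM at 48 h and 2.46-fold with isoflavone at 72 h. At 6 h it sat within 1.5-fold only because its control was raised to the floor. LAMC3 encodes the laminin γ3 chain of basement membranes. It read 223 with B-DIM at 48 h, 315 with isoflavone at 72 h, 106 with B-DIM at 6 h and 136 with isoflavone at 6 h, against 98.6 in the control, so that the late ratios were 2.26-fold with B-DIM at 48 h and 3.19-fold with isoflavone at 72 h and the difference between the late arrays was among the 5 largest in that direction. TAC1, the precursor of substance P and neurokinin A, read 251 with B-DIM at 48 h, 229 with isoflavone at 72 h, 101 with B-DIM at 6 h and 126 with isoflavone at 6 h, against 104 in the control, with ratios of 2.41-fold with B-DIM at 48 h and 2.2-fold with isoflavone at 72 h. OLFML2A, an olfactomedin domain protein of the extracellular space, lay near the limit at 268 with B-DIM at 48 h, 234 with isoflavone at 72 h, 152 with B-DIM at 6 h and 87.9 with isoflavone at 6 h, against 115 in the control, or 2.34-fold with B-DIM at 48 h and 2.03-fold with isoflavone at 72 h. The exception to these low levels was ERFE, which encodes erythroferrone, the hormone by which red cell precursors lower hepcidin. ERFE read 1445 with B-DIM at 48 h, 1434 with isoflavone at 72 h, 714 with B-DIM at 6 h and 1023 with isoflavone at 6 h, against 694 in the control. Its late ratios were 2.08-fold with B-DIM at 48 h and 2.07-fold with isoflavone at 72 h, and its isoflavone 6 h signal was the highest relative to the control in the set, at 0.56 on the log2 scale, leaving a rise of 1.4-fold between isoflavone at 6 h and at 72 h.

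Membrane and vesicle proteins numbered 9. EMP3, a tetraspan membrane glycoprotein of the PMP22 family, had the clearest step of the 9 and read 1804 with B-DIM at 48 h, 1244 with isoflavone at 72 h, 436 with B-DIM at 6 h and 514 with isoflavone at 6 h, against 434 in the control (203729_at). The 3 signals outside the late arrays lay between 434 and 514, and both late signals were at least 2.42 times the highest of them. ANXA3 encodes an annexin, a calcium-dependent phospholipid-binding protein, and read 1017 with B-DIM at 48 h, 621 with isoflavone at 72 h, 299 with B-DIM at 6 h and 385 with isoflavone at 6 h, against 266 in the control, or 3.82-fold with B-DIM at 48 h and 2.33-fold with isoflavone at 72 h. Its late rise was larger with B-DIM than with isoflavone, and between isoflavone at 6 h and at 72 h it was 1.61-fold. ABCG1, a transporter that exports cholesterol to high-density lipoprotein, read 317 with B-DIM at 48 h, 411 with isoflavone at 72 h, 185 with B-DIM at 6 h and 94.4 with isoflavone at 6 h, against 128 in the control. The late ratios were 2.48-fold with B-DIM at 48 h and 3.21-fold with isoflavone at 72 h, and the 6 h arrays lay on opposite sides of the control, at log2 ratios of 0.53 with B-DIM and −0.40 with isoflavone. The other probe sets of ABCG1 were near or under the floor with B-DIM at 48 h, and none was above the control there. With isoflavone at 72 h their log2 ratios ran from 0.83 to 0.94, and 211113_s_at was at 1.03 with B-DIM at 6 h. FCGRT encodes the heavy chain of the neonatal Fc receptor, which recycles IgG and albumin. It read 726 with B-DIM at 48 h, 652 with isoflavone at 72 h, 243 with B-DIM at 6 h and 423 with isoflavone at 6 h, against 304 in the control, with late ratios of 2.39-fold with B-DIM at 48 h and 2.14-fold with isoflavone at 72 h and 6 h arrays on opposite sides in the other order, −0.33 with B-DIM and 0.48 with isoflavone.

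SYTL5, a synaptotagmin-like effector of Rab27 in vesicle traffic, read 774 with B-DIM at 48 h, 768 with isoflavone at 72 h, 508 with B-DIM at 6 h and 382 with isoflavone at 6 h, against 371 in the control, with late ratios of 2.09-fold with B-DIM at 48 h and 2.07-fold with isoflavone at 72 h. XK, a membrane protein whose loss causes McLeod syndrome, read 336 with B-DIM at 48 h, 266 with isoflavone at 72 h, 121 with B-DIM at 6 h and 124 with isoflavone at 6 h, against 123 in the control. It had the flattest early values of the 9, with all 3 signals outside the late arrays between 121 and 124, and late ratios of 2.74-fold with B-DIM at 48 h and 2.17-fold with isoflavone at 72 h. TMEM178A, a membrane protein whose mouse counterpart restrains osteoclast formation, read 217 with B-DIM at 48 h, 311 with isoflavone at 72 h, 148 with B-DIM at 6 h and 50.1 with isoflavone at 6 h, against 104 in the control. Its isoflavone 6 h signal lay under the floor, and its late ratios of 2.1-fold with B-DIM at 48 h and 3-fold with isoflavone at 72 h differed more than those of any gene but MALAT1 in favor of isoflavone. CLTRN encodes collectrin, needed for amino acid transporters at the kidney brush border in mice, and read 218 with B-DIM at 48 h, 253 with isoflavone at 72 h, 119.9 with B-DIM at 6 h and 82.4 with isoflavone at 6 h, against 64.7 in the control, at least 2.25-fold with B-DIM at 48 h and 2.61-fold with isoflavone at 72 h. ATP6V0D2, a V-ATPase subunit abundant in osteoclasts and kidney, read 228 with B-DIM at 48 h, 206 with isoflavone at 72 h, 107 with B-DIM at 6 h and 104 with isoflavone at 6 h, against 77.3 in the control, at least 2.35-fold with B-DIM at 48 h and 2.12-fold with isoflavone at 72 h. Of the macrophage and osteoclast markers, CD14, PTPRC and LYZ lay under the floor on all 5 arrays, CSF1R was above it only with isoflavone at 72 h, at 98.3, and CTSK lay just above it on all 5, from 101 to 138. ITGAM read 157 with B-DIM at 48 h, 14.1 with isoflavone at 72 h, 56.1 with B-DIM at 6 h and 129 with isoflavone at 6 h, against 46.4 in the control. None was 2-fold higher on either late array, beside 5.33% of all measured genes with B-DIM at 48 h and 4.8% with isoflavone at 72 h.

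**Figure D2:**
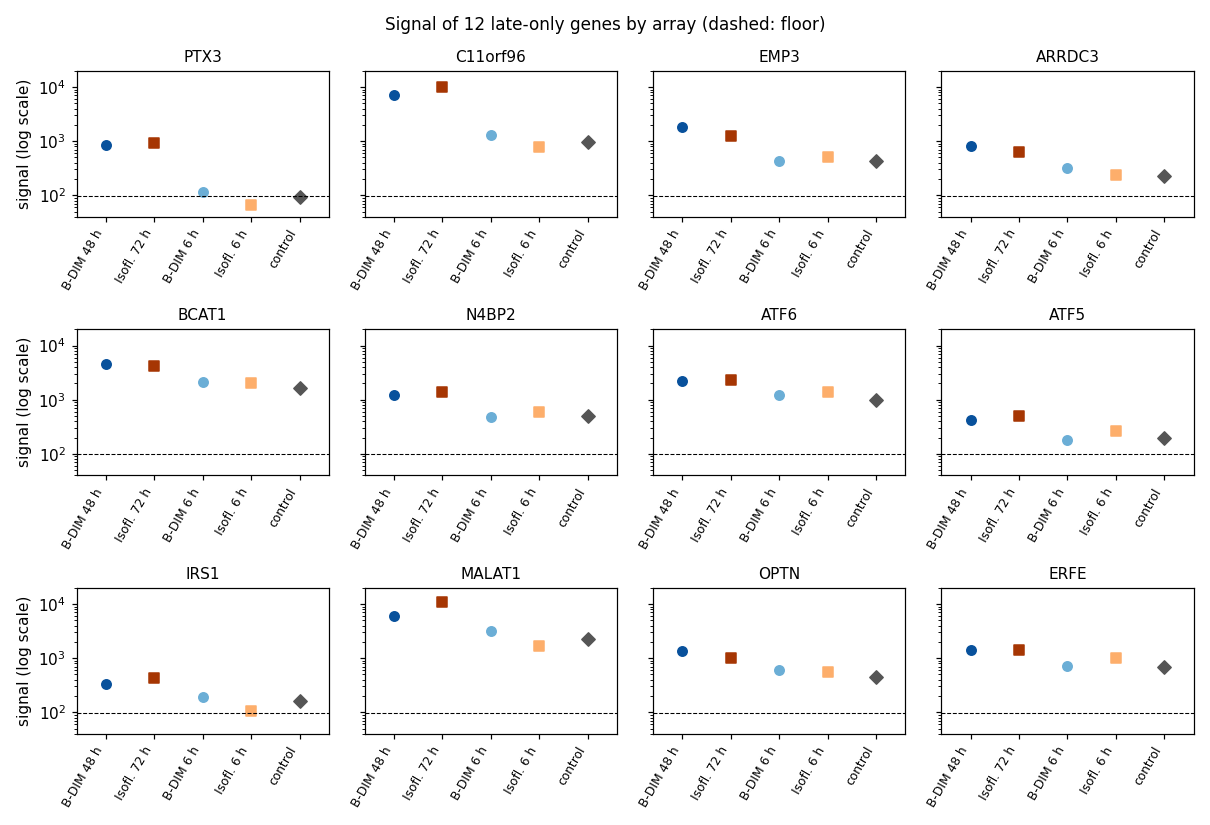
Deposited signal (vertical axis, log scale) of 12 late-only genes on the 5 arrays, in the order B-DIM at 48 h, isoflavone at 72 h, B-DIM at 6 h, isoflavone at 6 h and control; each point is 1 array and the dashed line is the floor of 97.1. The late points are the highest in every panel, by 7.41-fold over the next array for PTX3 and by 1.4-fold for ERFE, the smallest step.

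Signaling adaptors numbered 5. ARRDC3 encodes an α-arrestin that recruits ubiquitin ligases to membrane receptors, and its probe set 224797_at read 822 with B-DIM at 48 h, 640.2 with isoflavone at 72 h, 320.3 with B-DIM at 6 h and 237 with isoflavone at 6 h, against 225 in the control. The late ratios were 3.65-fold with B-DIM at 48 h and 2.85-fold with isoflavone at 72 h, and the B-DIM 6 h signal was already the highest of the other 3. IRS1, the docking protein of the insulin and IGF-1 receptors, read 337 with B-DIM at 48 h, 426 with isoflavone at 72 h, 193 with B-DIM at 6 h and 108 with isoflavone at 6 h, against 158 in the control. Its late ratios were 2.13-fold with B-DIM at 48 h and 2.69-fold with isoflavone at 72 h, and its isoflavone 6 h ratio, −0.56 on the log2 scale, was the lowest in the set, so that isoflavone at 72 h stood 3.96-fold above isoflavone at 6 h. GAB2, a scaffold that carries PI3 kinase and SHP2 to receptors, read 601 with B-DIM at 48 h, 465 with isoflavone at 72 h, 229.5 with B-DIM at 6 h and 209 with isoflavone at 6 h, against 223 in the control. The 3 lower signals lay between 209 and 229.5, and the late ratios were 2.7-fold with B-DIM at 48 h and 2.09-fold with isoflavone at 72 h. INSC, the homolog of fly Inscuteable that orients the mitotic spindle in polarized cells, read 412 with B-DIM at 48 h, 274 with isoflavone at 72 h, 145 with B-DIM at 6 h and 6.9 with isoflavone at 6 h, against 7.2 in the control. Its late ratios are at least 4.24-fold with B-DIM at 48 h and 2.82-fold with isoflavone at 72 h, and its B-DIM 6 h signal was far above the 7.2 of the control, so that it sat within 1.5-fold only because the control was raised to the floor.

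DEPP1, named for its induction in decidua by progesterone and a known target of FOXO factors, read 287 with B-DIM at 48 h, 265 with isoflavone at 72 h, 82.8 with B-DIM at 6 h and 128 with isoflavone at 6 h, against 10.1 in the control. Its late ratios are at least 2.96-fold with B-DIM at 48 h and 2.73-fold with isoflavone at 72 h, and like INSC it left the early window without the floor. On a list of FOXO targets, 5 of 24 measured were 2-fold higher and 1 lower with B-DIM at 48 h, beside 5.33% and 3.87% of all measured genes. Of 23, 4 were higher and none lower with isoflavone at 72 h, beside 4.8% and 2.06%. The list medians were 0.34 with B-DIM and 0.52 with isoflavone. That list leaves out DEPP1 and held no late-only gene, where late-only genes were 0.299% of 14025 genes. Forkhead letters, GTAAACA on either strand, were found in 3 of 53 RefSeq promoter windows of 34 late-only genes, 5.66%, against 3.42% of all 35116 windows. These windows are printed because DEPP1, ARRDC3 and SYTL5 hold the 3 matches. Capitals mark GTAAACA, read as TGTTTAC on the other strand, and in DEPP1 also the TATAAA box, whose first base lies 31 bases before the start site. The forkhead letters begin 180 bases before the start site in DEPP1 (chr10:44978760-44979059, minus strand), 29 in ARRDC3 (chr5:91380048-91380347, minus strand) and 134 in SYTL5 (chrX:38033284-38033583, plus strand), all in GRCh38.p14. A match is a description of letters and not a bound site.
DEPP1: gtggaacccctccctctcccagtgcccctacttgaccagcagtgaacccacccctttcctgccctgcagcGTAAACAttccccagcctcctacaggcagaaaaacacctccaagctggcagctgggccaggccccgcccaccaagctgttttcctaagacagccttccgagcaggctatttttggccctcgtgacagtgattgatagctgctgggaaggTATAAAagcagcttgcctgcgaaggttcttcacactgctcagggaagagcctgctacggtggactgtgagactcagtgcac
ARRDC3: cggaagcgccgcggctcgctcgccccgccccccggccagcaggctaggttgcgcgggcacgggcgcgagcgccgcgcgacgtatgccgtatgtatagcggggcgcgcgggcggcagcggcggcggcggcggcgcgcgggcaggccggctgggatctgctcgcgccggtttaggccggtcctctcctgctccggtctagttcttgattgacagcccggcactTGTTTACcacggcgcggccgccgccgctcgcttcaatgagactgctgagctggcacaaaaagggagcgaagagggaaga
SYTL5: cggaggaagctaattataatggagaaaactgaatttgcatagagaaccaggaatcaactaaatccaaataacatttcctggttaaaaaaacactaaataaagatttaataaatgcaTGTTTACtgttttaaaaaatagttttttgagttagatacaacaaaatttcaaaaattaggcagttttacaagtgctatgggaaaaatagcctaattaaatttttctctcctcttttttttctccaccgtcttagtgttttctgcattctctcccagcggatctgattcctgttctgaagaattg

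Further motifs were searched on both strands of the same windows. TGACTCA (AP-1) lay in 9.43% of the late-only windows against 4.95% of all, in ATF5, CLTRN, ERC2, INSC and WDFY3-AS2. CACGTG (E-box) lay in 7.55% against 7.26%, GGGCGG (SP1) in 54.7% against 45%, TATAAA in 17% against 11.5% and GCGTG, the core of the aryl hydrocarbon receptor element, in 32.1% against 36.5%. Lower shares were found for CCAAT, 18.9% against 34.6%, for TGACNNNGC (NRF2), 3.77% against 13.3%, and for CCGGAAG (ETS), 3.77% against 10.3%. TGACGTCA (CRE) was in none of the 53 windows and in 1.85% of all. The full palindromes of the androgen and glucocorticoid element and of the estrogen element were in none of the 53, and in 0.00285% and 0.057% of all. The interferon-stimulated response element lay in 5.66% against 3.57%, GCCNNNGGC (AP-2) in 34% against 23.2%, CACCTG (ZEB and SNAI) in 13.2% against 20.6% and GGAANNTCC (NF-kB) in 7.55% against 4.56%. Median GC content was 64.7% in the late-only windows and 58.7% in all, several genes have more than 1 window, and no motif share was tested.

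Transcription factors numbered 5, all measured above the floor in the control. ATF6 is the endoplasmic reticulum membrane factor that is cleaved under protein folding stress and then induces chaperones. Its probe set 226941_at read 2238 with B-DIM at 48 h, 2277 with isoflavone at 72 h, 1208 with B-DIM at 6 h and 1411 with isoflavone at 6 h, against 1001 in the control. The late ratios were 2.24-fold with B-DIM at 48 h and 2.28-fold with isoflavone at 72 h, and the isoflavone 6 h signal was the highest of the other 3. A list of the unfolded protein response, which leaves out ATF6, had 21 measured genes. With B-DIM at 48 h, 3 were 2-fold higher and 1 lower, beside 5.33% and 3.87% of all measured genes. With isoflavone at 72 h, 5 were higher and none lower, beside 4.8% and 2.06%. The list medians were 0.11 with B-DIM and 0.49 with isoflavone. MBTPS2, which encodes the second of the proteases that cut ATF6, fell just short of the late limit with B-DIM at 48 h, at 1.98-fold, and passed it with isoflavone at 72 h, at 2.43-fold.

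ATF5 is a bZIP factor of the mitochondrial and amino acid stress responses, and it read 430.1 with B-DIM at 48 h, 493 with isoflavone at 72 h, 178 with B-DIM at 6 h and 259 with isoflavone at 6 h, against 196 in the control, with late ratios of 2.19-fold with B-DIM at 48 h and 2.51-fold with isoflavone at 72 h. It was below the control with B-DIM at 6 h, at −0.14 on the log2 scale. The ATF4 and amino acid response list leaves out ATF5 and held no late-only gene, where late-only genes were 0.299% of 14025 genes. Of its 28 genes, 20 were 2-fold higher on each late array, beside 5.33% of all measured genes with B-DIM at 48 h and 4.8% with isoflavone at 72 h. But 18 were so with B-DIM at 6 h already, beside 2.86% of all measured genes. With isoflavone at 6 h, 3 of 27 were higher, beside 1.18%, and 7 lower, beside 3.82%. ETS1, an ETS factor of vascular and immune cells and of invasive tumors, lay nearest the limit, at 426 with B-DIM at 48 h, 475 with isoflavone at 72 h, 266 with B-DIM at 6 h and 203 with isoflavone at 6 h, against 212 in the control, or 2.01-fold with B-DIM at 48 h and 2.24-fold with isoflavone at 72 h. MKX, the Mohawk homeobox factor of tendon, read 295 with B-DIM at 48 h, 338 with isoflavone at 72 h, 138 with B-DIM at 6 h and 68.9 with isoflavone at 6 h, against 118 in the control, or 2.5-fold with B-DIM at 48 h and 2.86-fold with isoflavone at 72 h. ZNF853, a zinc finger protein, read 333 with B-DIM at 48 h, 466 with isoflavone at 72 h, 226 with B-DIM at 6 h and 209 with isoflavone at 6 h, against 156 in the control, or 2.14-fold with B-DIM at 48 h and 3-fold with isoflavone at 72 h, and had both 6 h arrays above the control, at 0.54 with B-DIM and 0.43 with isoflavone.

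Metabolic and mitochondrial proteins numbered 5 and included some of the brightest genes of the set. BCAT1, the cytosolic enzyme that transaminates leucine, isoleucine and valine, read 4527 with B-DIM at 48 h, 4231 with isoflavone at 72 h, 2142 with B-DIM at 6 h and 2033 with isoflavone at 6 h, against 1669 in the control (225285_at). The late ratios were 2.71-fold with B-DIM at 48 h and 2.54-fold with isoflavone at 72 h, and the other 3 arrays lay within 1.28-fold of one another. PYGL, the liver form of glycogen phosphorylase, which releases glucose units from glycogen, read 3825 with B-DIM at 48 h, 4194 with isoflavone at 72 h, 2556 with B-DIM at 6 h and 2419 with isoflavone at 6 h, against 1756 in the control. Both its 6 h arrays were near the upper edge of the window, at 0.54 with B-DIM and 0.46 with isoflavone, so the late ratios of 2.18-fold with B-DIM at 48 h and 2.39-fold with isoflavone at 72 h stood only 1.5-fold and 1.73-fold above 6 h. TIMM9, a chaperone of the mitochondrial intermembrane space that guides carrier proteins to the inner membrane, read 2695 with B-DIM at 48 h, 2869 with isoflavone at 72 h, 1529.7 with B-DIM at 6 h and 1430.2 with isoflavone at 6 h, against 1305 in the control, or 2.07-fold with B-DIM at 48 h and 2.2-fold with isoflavone at 72 h. HINT3, a histidine triad nucleotide hydrolase, read 1068 with B-DIM at 48 h, 622 with isoflavone at 72 h, 224 with B-DIM at 6 h and 299 with isoflavone at 6 h, against 233 in the control. Its ratios of 4.58-fold with B-DIM at 48 h and 2.67-fold with isoflavone at 72 h differed between the late arrays more than those of any other gene in favor of B-DIM, by 0.78 on the log2 scale. A second probe set of HINT3, 226537_at, did not match the isoflavone value. Its log2 ratios were 1.31 with B-DIM at 48 h and 0.14 with isoflavone at 72 h. HTATIP2, an oxidoreductase also called TIP30 with a reported role as a tumor suppressor, read 894 with B-DIM at 48 h, 1259 with isoflavone at 72 h, 482 with B-DIM at 6 h and 491 with isoflavone at 6 h, against 402 in the control, with ratios of 2.23-fold with B-DIM at 48 h and 3.14-fold with isoflavone at 72 h.

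Of 3 genes of the ubiquitin and autophagy systems, OPTN encodes optineurin, an autophagy receptor for damaged mitochondria and bacteria. It read 1348 with B-DIM at 48 h, 1013 with isoflavone at 72 h, 615 with B-DIM at 6 h and 555 with isoflavone at 6 h, against 447 in the control (202074_s_at), or 3.01-fold with B-DIM at 48 h and 2.27-fold with isoflavone at 72 h. Among 24 measured autophagy genes, OPTN was the only late-only one, where late-only genes were 0.299% of 14025 genes. Of the 24, 3 were 2-fold higher and 2 lower with B-DIM at 48 h, beside 5.33% and 3.87% of all measured genes. With isoflavone at 72 h, 6 were higher and none lower, beside 4.8% and 2.06%. The list medians were −0.13 with B-DIM and 0.13 with isoflavone. UBE2QL1, which resembles E2 ubiquitin-conjugating enzymes, read 800.1 with B-DIM at 48 h, 925 with isoflavone at 72 h, 485 with B-DIM at 6 h and 263 with isoflavone at 6 h, against 339 in the control, or 2.36-fold with B-DIM at 48 h and 2.73-fold with isoflavone at 72 h, with the 6 h arrays on opposite sides of the control, at 0.52 with B-DIM and −0.37 with isoflavone. WDSUB1, a protein with WD repeats and a U-box, read 1069 with B-DIM at 48 h, 1141 with isoflavone at 72 h, 649.8 with B-DIM at 6 h and 467 with isoflavone at 6 h, against 517 in the control, or 2.07-fold with B-DIM at 48 h and 2.21-fold with isoflavone at 72 h. The lists that hold ABCG1 and IRS1 also held 1 late-only gene each. Of 14 measured genes of cholesterol synthesis and sterol regulation, 3 were 2-fold higher on each late array, 1 was lower with B-DIM at 48 h and none with isoflavone at 72 h, with medians of 0.56 with B-DIM and 0.13 with isoflavone. Of 14 of the IGF axis, 4 were higher and 1 lower with B-DIM at 48 h and 3 higher and none lower with isoflavone at 72 h, with medians of 0.38 with B-DIM and 0.49 with isoflavone. The shares of all measured genes given for the autophagy list stand beside the sterol and IGF lists as well. Each of the 3 lists held 1 late-only gene, and with a share of 0.299% over all genes a count of 1 was not read further.

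The set holds 2 long noncoding RNAs. MALAT1, an abundant RNA of nuclear speckles, read 6048 with B-DIM at 48 h, 10820.2 with isoflavone at 72 h, 3141 with B-DIM at 6 h and 1647 with isoflavone at 6 h, against 2292 in the control (1558678_s_at). The late ratios were 2.64-fold with B-DIM at 48 h and 4.72-fold with isoflavone at 72 h, the largest difference in favor of isoflavone, and isoflavone at 6 h lay below the control, at −0.48 on the log2 scale, where B-DIM at 6 h was above it, at 0.45. WDFY3-AS2, transcribed opposite to WDFY3, read 224 with B-DIM at 48 h, 285 with isoflavone at 72 h, 155 with B-DIM at 6 h and 129 with isoflavone at 6 h, against 106 in the control, or 2.11-fold with B-DIM at 48 h and 2.68-fold with isoflavone at 72 h.

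The other 6 genes fall in no common group. C11orf96, whose role is not described here, was the gene with the largest measured rise, since its control lay well above the floor: 227099_s_at read 6986 with B-DIM at 48 h, 9849 with isoflavone at 72 h, 1316 with B-DIM at 6 h and 780.1 with isoflavone at 6 h, against 956 in the control, or 7.31-fold with B-DIM at 48 h and 10.3-fold with isoflavone at 72 h. Both late arrays were at least 5.31 times any other. A second probe set of C11orf96, 1568616_a_at, read low, at 105 with B-DIM at 48 h and 151 with isoflavone at 72 h. Its control lay under the floor, and its log2 ratios were at least 0.11 with B-DIM and 0.64 with isoflavone. SANBR, a regulator of antibody class switching in mice, read 759 with B-DIM at 48 h, 558 with isoflavone at 72 h, 252 with B-DIM at 6 h and 251 with isoflavone at 6 h, against 195 in the control, or 3.9-fold with B-DIM at 48 h and 2.86-fold with isoflavone at 72 h. N4BP2, a protein that binds the NEDD4 ubiquitin ligase, read 1222 with B-DIM at 48 h, 1412 with isoflavone at 72 h, 475 with B-DIM at 6 h and 599 with isoflavone at 6 h, against 492 in the control, or 2.48-fold with B-DIM at 48 h and 2.87-fold with isoflavone at 72 h. ERC2, a scaffold of presynaptic active zones, read 208 with B-DIM at 48 h, 199 with isoflavone at 72 h, 133.1 with B-DIM at 6 h and 77.8 with isoflavone at 6 h, against 98.8 in the control, or 2.11-fold with B-DIM at 48 h and 2.02-fold with isoflavone at 72 h, close to the limit. DNAH17, a dynein heavy chain of sperm tails, read 199 with B-DIM at 48 h, 241 with isoflavone at 72 h, 74.9 with B-DIM at 6 h and 92.2 with isoflavone at 6 h, against 61.4 in the control, under the floor on the 3 arrays that were not late, so the ratios are at least 2.05-fold with B-DIM at 48 h and 2.48-fold with isoflavone at 72 h. C2orf72 read 209.5 with B-DIM at 48 h, 207 with isoflavone at 72 h, 139 with B-DIM at 6 h and 61.4 with isoflavone at 6 h, against 97.8 in the control, or 2.14-fold with B-DIM at 48 h and 2.11-fold with isoflavone at 72 h.

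By the rule the 6 h values could range from 1.5-fold below to 1.5-fold above the control, and they were not centered on it. The late ratios that chose the genes share the same control array, so this skew can follow in part from the choice. The shares of all measured genes given beside it were not chosen that way. With B-DIM at 6 h, 34 of the 42 were above the control, 6 below and 2 equal at the floor, where 57.1% of all measured genes were above. The median log2 ratio was 0.28 against 0.07 for all measured genes, of which 82.4% lay within 1.5-fold. With isoflavone at 6 h, 25 were above, 13 below and 4 equal, where 50.3% of all measured genes were above, and the medians were 0.11 against 0 with 81.3% within 1.5-fold. On both 6 h arrays 18 genes were above the control and none was below. A further 13 were above with B-DIM and below with isoflavone and 6 were the reverse. The genes just beyond the window were DYNLT2B, SEL1L3, TAPT1, MTHFD2 and MCM3AP-AS1, each at 0.59 to 0.61 on 1 of the 6 h arrays. Just inside the late limit were ETS1, ERC2 and OLFML2A, and just outside it PTPN21, MBTPS2 and KIAA1107, whose smaller late ratios fell short of 2-fold, at 1.97-fold for KIAA1107 and 1.98-fold for MBTPS2.

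A comparison of late with early arrays of the same compound leaves out the control, though the rule still forces a rise. With B-DIM, 24 of 42 were at least 2-fold higher at 48 h than at 6 h, beside 1.83% of 13394 measured genes, and the median was 1.08 on the log2 scale, 2.11-fold, against −0.01 for all. With isoflavone, 33 of 42 were at least 2-fold higher at 72 h than at 6 h, beside 7.77% of 12660 measured genes, and the median was 1.16, 2.23-fold, against 0.04. Both limits were passed by 17 genes, beside 0.435% of 14025. The other 25, among them ATF6, PYGL, OPTN, ERFE and ETS1, were under 2-fold with at least 1 compound, since their 6 h signals already stood above the control. The smallest rises were 0.53 with B-DIM (WDFY3-AS2) and 0.49 with isoflavone (ERFE).

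Between the late arrays the times differ, 48 h and 72 h, so the values stand side by side. The log2 difference, B-DIM at 48 h minus isoflavone at 72 h, had a median of −0.04 and ran from −0.84 (MALAT1) to 0.78 (HINT3). It was positive for 19 genes and negative for 23, 38 lay within 1.5-fold of each other and none was 2-fold apart. A narrow range follows in part from the rule, which required both to pass 2-fold. Apart from MALAT1, the genes further toward isoflavone were TMEM178A, LAMC3, C11orf96 and HTATIP2. Toward B-DIM after HINT3 stood ANXA3, INSC, EMP3 and SANBR.

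**Figure D3:**
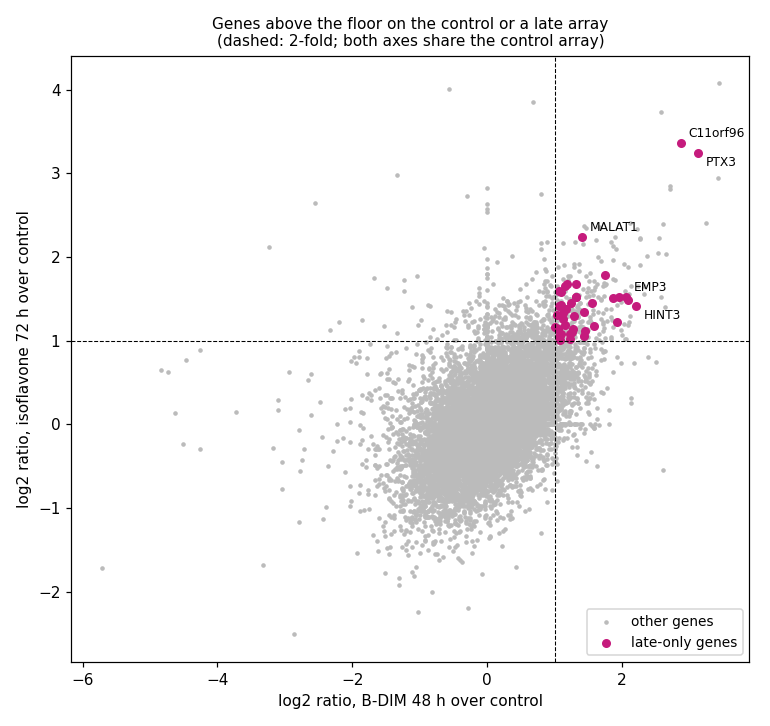
Log2 ratio to the control of every gene above the floor on the control or a late array, with B-DIM at 48 h on the horizontal axis and isoflavone at 72 h on the vertical axis; magenta points are the 42 late-only genes and dashed lines mark 2-fold. The late-only genes lie in the upper right corner by rule, most of them close to both lines, and the 2 axes share 1 control array.

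Other probe sets of the same genes are a measure that the rule did not use, though made from the same RNA. Of the 42 genes, 24 had 52 further probe sets, and 39 of these, in 19 genes, lay above the floor on the control or a late array. On both late arrays 27 of the 39 were above the control and 7, in 5 genes, were at least 2-fold higher, and 2 met the whole rule. Among further probe sets of all genes, 25.6% of 12476 were above the control on both late arrays and 1.2% were at least 2-fold higher, though 11 of the 39 belong to MALAT1 and probe sets of 1 gene are not independent. The median log2 ratios were 0.61 with B-DIM at 48 h and 0.71 with isoflavone at 72 h. The 5 genes were MALAT1, BCAT1, ATF6, OPTN and UBE2QL1. Of 3 further probe sets of BCAT1, 226517_at read 3196 with B-DIM at 48 h, 3488 with isoflavone at 72 h, 1584 with B-DIM at 6 h and 1195 with isoflavone at 6 h, against 1178 in the control, close to its brighter one. The other two stayed under 2-fold on the late arrays. On the log2 scale 214390_s_at was at 0.61 with B-DIM and 0.38 with isoflavone, and 214452_at at 0.78 with B-DIM and 0.35 with isoflavone. For OPTN, 202073_at read 322 with B-DIM at 48 h, 602 with isoflavone at 72 h, 206 with B-DIM at 6 h and 105 with isoflavone at 6 h, against 113 in the control, so that B-DIM at 6 h was past 1.5-fold there. For ATF6, 231927_at passed 2-fold on both late arrays, at 1.17 with B-DIM and 1.10 with isoflavone on the log2 scale, but was also past 1.5-fold at 6 h, at 0.73 with B-DIM and 0.72 with isoflavone. The other two of ATF6 did not pass on both, 203952_at just under 2-fold with B-DIM at 48 h and at a log2 ratio of 0.59 with isoflavone at 72 h. For 217550_at the log2 ratios were 0.22 with B-DIM and 0.63 with isoflavone.

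For MALAT1 all 11 other probe sets were at least 2-fold higher with isoflavone at 72 h, from 1.12 to 2.45 on the log2 scale. With B-DIM at 48 h only 3 of the 11 were, and the range was −0.06 to 1.81. With isoflavone at 6 h, 8 of the 11 lay below the control. Outside the 5 genes, no second probe set was at least 2-fold higher on both late arrays. For ETS1, 214447_at gave −0.65 with B-DIM at 48 h and −0.18 with isoflavone at 72 h. For HTATIP2, 210253_at lay above the control with B-DIM at 48 h, at 0.32, and below it with isoflavone at 72 h, at −0.37. Both of these probe sets read near the floor, but others did not. For HINT3, 226537_at read 622 with B-DIM at 48 h and 275 with isoflavone at 72 h, against 250 in the control. Its log2 ratios were 1.31 with B-DIM and 0.14 with isoflavone on the late arrays, and 0.32 with isoflavone at 6 h. For HTATIP2, 207180_s_at was at 0.44 with B-DIM at 48 h and 0.27 with isoflavone at 72 h. Probe sets of a gene can read different transcript ends.

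**Figure D4:**
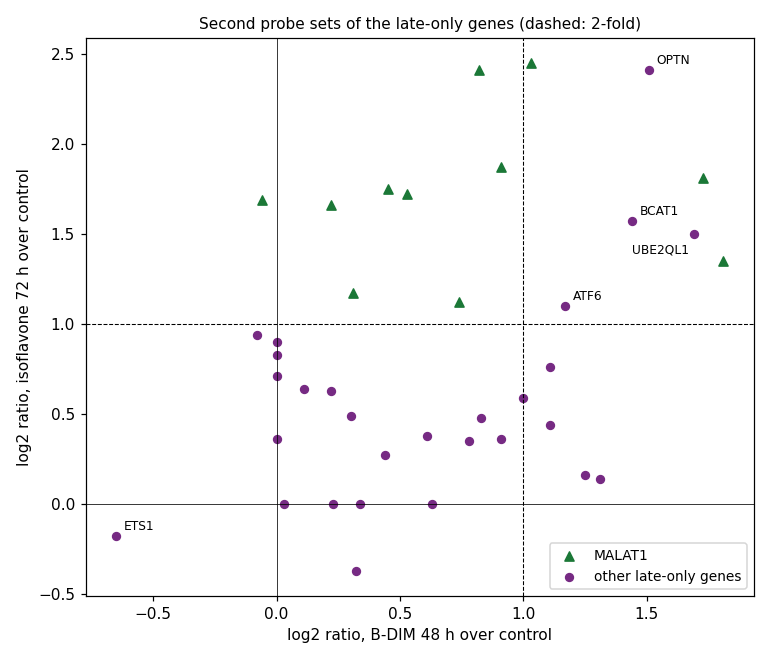
Log2 ratio to the control on B-DIM at 48 h (horizontal axis) and isoflavone at 72 h (vertical axis) of the 39 further probe sets of the late-only genes above the floor, green triangles for MALAT1 and purple circles for the other genes. The 7 probe sets beyond both dashed 2-fold lines belong to 5 genes, and all 11 of MALAT1 are above the horizontal line.

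The set was also formed again under 9 other ways of treating the signals. BCAT1, EMP3 and N4BP2 were kept in all 9, and ARRDC3, C11orf96, ERFE, MALAT1, PTX3, PYGL, SANBR and WDSUB1 in 8. DEPP1 was kept in 3, and ATP6V0D2, C2orf72, DNAH17 and ZNF853 in 4. These 5 genes all had late signals under 5 times the floor.

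**Figure D5:**
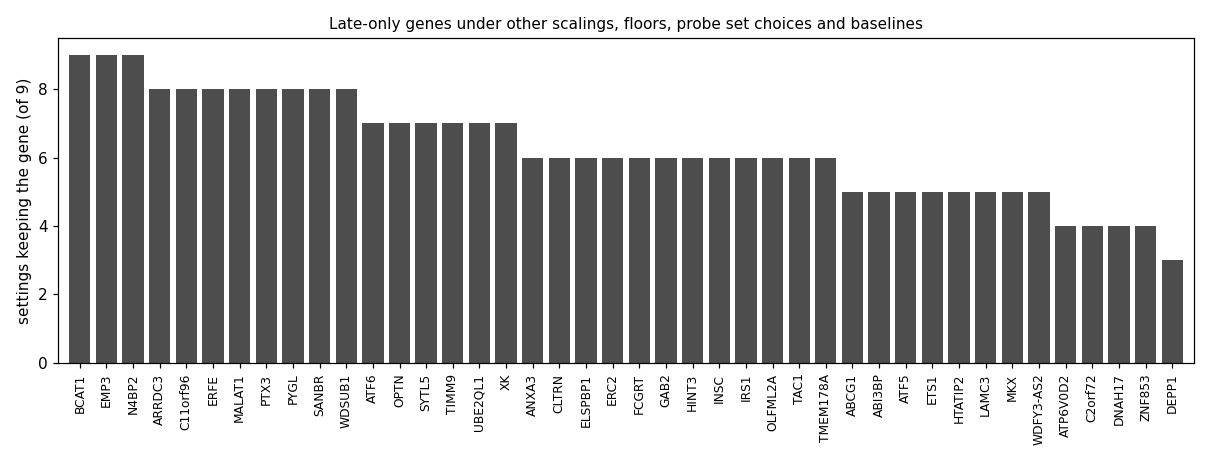
Number of processing settings (vertical axis, of 9) in which each of the 42 late-only genes (horizontal axis) again met the rule. The 3 genes kept in all 9 settings stand at the left, BCAT1, EMP3 and N4BP2, and DEPP1, kept in 3, at the right.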

How the data were processed

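RNA of the 5 conditions was hybridised to Human Genome U133 Plus 2.0 arrays. The authors made the deposited values, 1 linear intensity per probe set, with Microarray Suite (MAS5), MicroDB and Data Mining Tool software, whose versions and scaling target are not given in the sources used here. Each array was already scaled, and the deposited intensity values were used unchanged. Of 54613 probe sets, 41091 carry 1 gene symbol, 1801 carry several and 11721 are not in the gene table, and only the first were used for genes. Symbols were updated by gene ID to RefSeq for 19735 of 19775 genes. Signals under 97.1 were raised to it, so ratios of low genes are bounds and understate the change. Genes counted as measured between arrays when 1 of those arrays exceeded the floor. No detection call was used, and arrays give no count of molecules, so precision is limited by the 1 array per condition.

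No test was run. Fold changes were compared with limits of 2-fold and 1.5-fold. The rule was tried on simulated arrays with known late rises, planted in genes clear of the floor. No rise between 2-fold and 2.5-fold, where 26 of the 42 genes lay with B-DIM at 48 h, was simulated. The members, the gene and marker lists, the motifs and the roles were chosen with earlier results of these data known. All 5 signals are given for each late-only gene. By rule, full values were due for the 20 with the largest smaller late ratio and a late signal of at least 4 times the floor, the 5 brightest, those on a list, the 3 nearest each side of the limit and the 5 with the largest late difference each way. Promoter windows are RefSeq's for GRCh38.p14, matched for 34 of 42 genes, 53 windows in all. The alternatives tried were no floor, quantile normalization, median ratio scaling, a floor of 471.7 (the 75th percentile), the floor as a pseudocount, the mean of all probe sets, no probe sets ending in _s_at or _x_at, late limits of 1.5-fold and 3-fold, and a narrower and a wider (2-fold) early window. Another 3 were chosen after seeing the data: the probe set brightest on the control, the median of the control and 6 h arrays as baseline, and leaving out B-DIM at 48 h with isoflavone at 6 h. Python 3.11.15, numpy 2.4.6, pandas 2.3.3, scipy 1.17.1 and matplotlib 3.10.9 were used.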

Additional observations from a re-analysis of the deposited data

Results flagged for a closer look

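For 4 late-only genes the 6 h arrays lay on opposite sides of the control by at least 0.32 on the log2 scale each, and these differences were not tested. IRS1, at 0.29 with B-DIM at 6 h and −0.56 with isoflavone at 6 h, missed that limit on 1 side. MALAT1 was at a log2 ratio of 0.45 with B-DIM at 6 h and −0.48 with isoflavone at 6 h. ABCG1 was at 0.53 with B-DIM at 6 h and −0.40 with isoflavone at 6 h. UBE2QL1 was at 0.52 with B-DIM at 6 h and −0.37 with isoflavone at 6 h. FCGRT had the reverse order, −0.33 with B-DIM at 6 h and 0.48 with isoflavone at 6 h.

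Probe sets left out of the gene comparison also held the pattern. Among those that carry several symbols, 1 of 1257 above the floor met the late-only rule (0.0796%), and among those not in the gene table, 6 of 5144 (0.117%), against 0.299% of the genes. No late signal among them was over 667 with several symbols or 417 outside the gene table.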

How the results depend on the processing

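No paired analysis was possible because each condition has 1 array. The count of late-only genes, 42 as reported, depends on the limits and the floor. It was 78 with no floor, 12 with a floor at the 75th percentile, 21 with the floor as a pseudocount, 314 with a late limit of 1.5-fold, 3 with 3-fold, 13 with a narrower early window and 132 with one of 2-fold. The genes lower only late, 27 as reported, numbered 100 with no floor, 15 with the pseudocount, 284 and 0 with late limits of 1.5-fold and 3-fold, and 4 and 51 with the narrower and the 2-fold early windows. The count at least 2-fold higher with B-DIM at 48 h than at 6 h was 8 with the 75th percentile floor, 15 with the pseudocount, 49 and 3 with the 1.5-fold and 3-fold late limits, and 10 and 43 with the narrower and 2-fold windows. For isoflavone at 72 h over 6 h these counts were 8, 15, 89, 3, 11 and 79. With the changed floors both rows of counts are out of the 42 genes. With the changed limits and windows they are out of the newly formed sets of 314, 3, 13 and 132 genes, so the 2 kinds are not comparable. Medians moved with the 75th percentile floor, to 0.17 with B-DIM at 48 h and 0.04 with isoflavone at 72 h over the 42 genes, since signals under 471.7 are raised to it, and with the 3-fold limit, to 2.87 and 3.25.

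Of the 42 genes, 38 stayed in a set of 50 after quantile normalization, 41 in 44 after median ratio scaling, 33 in 78 with no floor, 11 in 12 with the 75th percentile floor, 15 in 21 with the pseudocount and 25 in 31 with the mean of all probe sets. Without _s_at and _x_at probe sets 31 stayed in 35, of 37 that had a probe set left. These 31 had already been read on such a probe set, so they stayed by construction. All 11 genes read on a probe set ending in _s_at were lost. With alternatives chosen after seeing the data, 36 stayed in 36 on the probe set brightest on the control and 34 in 48 on the median baseline, which left 15 genes lower only late. Leaving out B-DIM at 48 h and isoflavone at 6 h, 280 genes met the remaining limits on isoflavone at 72 h and B-DIM at 6 h, the 42 among them by construction. No late ratio of the genes changed sign under any setting run.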
